A study of Homo sapiens with 16 samples.

Results

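Transcript levels were compared between the controls of a study of the acetyltransferase p300 in NCI-H929, an established human multiple myeloma cell line: 4 libraries labelled NTC and 4 libraries labelled DMSO, 8 of the 16 bulk RNA-seq libraries of the series. The DMSO libraries came from cells given the solvent and are the controls of cells given degrader 27, a compound that removes p300, for 6 h (dose 3 nM); the labels give no time for the solvent. The NTC libraries are the controls of p300 knockout cells; the labels do not spell out the abbreviation, which commonly stands for a non-targeting control in CRISPR experiments, nor say how the knockout was made or whether the line is 1 clone. No library of these controls carries the p300 knockout or received the degrader, and all 16 libraries carry the same batch label, 1. The treatment history of the cells (solvent, or the handling of a knockout control) and the experiment they belonged to change together between the groups, so neither can be told apart from the other in any difference given here.

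Solvent and non-targeting controls are commonly treated as interchangeable baselines, but a cell line sampled in separate experiments can differ in growth state, medium conditions and selection history. In plasma cell tumours, transcript programs for protein secretion, ribosome production and lineage identity run at high levels, and MYC, the transcription factor that drives ribosome production and growth, is a central regulator. NTC and DMSO are the reference points from which the effects of the knockout and of the degrader are counted, and the question here is how far apart those reference points lie.

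The DMSO libraries held 17445219 to 19482164 counts and the NTC libraries 21183894 to 23120350. The mitochondrial genome took 19.7, 13.4, 23.5 and 15.5% of the counts in DMSO libraries 1 to 4 and 8.91, 9.71, 10.3 and 9.59% in NTC libraries 1 to 4. Every DMSO library was above every NTC library, with means of 18.0 ± 4.47% and 9.62 ± 0.558% (SD, n = 4 each; exact two-sided permutation test, p = 0.0286, the smallest that 4 against 4 libraries allow). Mitochondrial genes were therefore left out, and the tests ran on the remaining nuclear counts. Correlations of log2 levels were 0.983 to 0.990 within DMSO, 0.993 to 0.994 within NTC and 0.920 to 0.945 between the groups, as a description over genes. The biological coefficient of variation was 12.7% among the DMSO libraries and 4.52% among the NTC libraries. Whether a replicate was a culture of its own is not stated in the labels; the spread that p-values are set against is that between libraries and may be technical. Plasma cell markers were high in both groups, as the label of the line says: their summed level was 14354 to 18676 CPM (read counts scaled to the nuclear total of each library) in DMSO and 14269 to 14467 CPM in NTC, with 10 of 10 markers counted.

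The baselines of the 2 controls differed at most of the genes that could be tested. Of 17341 nuclear genes, 11917 (68.7%) passed an adjusted p under 0.05 in edgeR's quasi-likelihood test, 6157 (35.5%) with a higher level in NTC and 5760 (33.2%) with a lower level. Of these, 4191 genes (24.2% of those tested) differed by 1 or more on the log2 scale, 2510 higher (14.5%) and 1681 lower (9.69%). In 10717 genes (61.8%) the libraries of the groups did not overlap. The median log2 fold change over all tested genes was 0.02 and the median absolute one 0.53, so the shifts ran both ways. All values below are NTC minus DMSO, as fitted log2 fold changes ± SE with p adjusted by Benjamini-Hochberg over the 17341 genes; levels are CPM after scaling by trimmed mean of M-values, in library order 1 to 4. Scaling to the total nuclear counts moved the median by 0.10 and made 59.2% of the calls higher ones, against 51.7%. No gene called in both fits had opposite signs under that scaling, DESeq2's size factors or scaling to housekeeping genes. The medians near 0 of the evenly split lists (surface proteins, p53 targets, sterol genes, acetyltransferases and housekeeping genes) did change sign under at least 1 of them. Tested against a fold of at least 1.5, 5263 genes were called, and with the mitochondrial share of each library as a covariate 7906 were called. The shares of the groups do not overlap, so the covariate fit, here and below, cannot fully separate the share from the group. Without DMSO libraries 1 and 3, which had the largest mitochondrial shares, 12191 of 18431 genes tested were called. Counts of list members called below are to be read beside the shares over all genes, 35.5% higher and 33.2% lower.

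**Figure D1:**
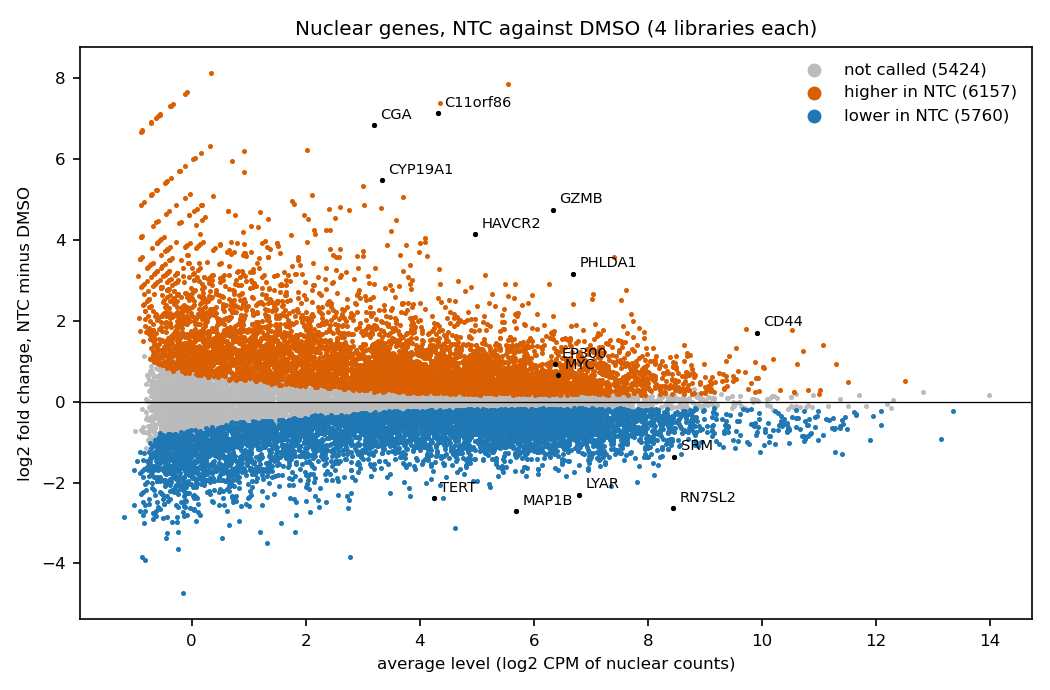
Log2 fold change of each of the 17341 nuclear genes (vertical axis, NTC minus DMSO) against its average level (horizontal axis, log2 CPM). Orange points (6157) were called higher in NTC, blue points (5760) lower and grey points were not called; the calls spread over the whole range of levels on both sides of 0.

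The contrast between the controls was larger than either contrast inside an experiment. The degrader against DMSO called 770 of 16159 genes (4.77%), or 6387 of 16462 (38.8%) without degrader library 2, in which 64.9% of the counts were mitochondrial. The knockout against NTC called 2917 of 17394 genes (16.8%), or 7244 of 17671 (41%) without knockout library 1, in which the share was 47.7%. The median absolute log2 fold change was 0.27 and 0.32 for the degrader in those fits and 0.24 and 0.22 for the knockout, beside 0.53 between the controls. These contrasts share the control libraries with the one described here, and the difference in size was not tested.

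Genes with the largest excess in NTC included markers of cytotoxic lymphocytes, a hormone subunit and an enzyme of steroid synthesis. GZMB, which encodes the protease granzyme B of cytotoxic cells, was at 4.07, 5.35, 6.24 and 7.03 CPM in DMSO against 142, 146, 159.9 and 165 CPM in NTC, a fitted 26.9-fold difference (4.75 ± 0.12, adjusted p = 3.15e-15). The lowest NTC library was many times above the highest DMSO library. HAVCR2, the immune checkpoint receptor TIM-3, was at 3.695, 3.14, 3.53 and 2.61 CPM in DMSO against 56.6, 59.2, 57.7 and 56.4 CPM in NTC (4.15 ± 0.10, adjusted p = 2.87e-15). CYP19A1, the aromatase that makes oestrogens, was at 0.148, 0.566, 0.376 and 0.468 CPM in DMSO against 17.01, 18.8, 19.8 and 17.2 CPM in NTC (5.49 ± 0.19, adjusted p = 2.39e-13). CGA, the shared alpha subunit of the pituitary and placental glycoprotein hormones, had 8 counts over the DMSO libraries and 1382 over the NTC libraries. Its levels were 0.148, 0.126, 0.1504 and 0.134 CPM in DMSO against 13.8, 15.4, 17.5 and 19.8 CPM in NTC, a ratio of 121 (exact 95% interval 61.0 to 280, which covers counting error only). C11orf86 was at 0.148, 0.314, 0.1504 and 0.402 CPM in DMSO against 33.5, 40.4, 34.8 and 41.6 CPM in NTC (7.14 ± 0.19, adjusted p = 5.81e-15). In each of these genes the libraries of the groups were far apart. The DMSO levels of CYP19A1, CGA and C11orf86 rested on few counts, and those of CYP19A1 and C11orf86 spread widely for their size. The rules that named them, and the largest deficits below, required groups without overlap. That separation was therefore fixed by the choice, and 61.8% of all tested genes also had none.

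Further genes of this kind encode proteins of the cell surface and its surroundings. LAMB3, a laminin chain of basement membranes, went from 1.803 ± 0.809 to 30.6 ± 3.16 CPM (4.06 ± 0.17), and PRSS23, a secreted serine protease, from 1.05 ± 0.279 to 19.9 ± 1.39 CPM (4.22 ± 0.15; mean ± SD, n = 4). CD44, the hyaluronan receptor of many lymphoid cells, was at 402, 503, 444 and 462 CPM in DMSO against 1474, 1526, 1374 and 1534 CPM in NTC (1.71 ± 0.08, adjusted p = 8.15e-12). Its divergent neighbour CD44-DT went from 0.688 ± 0.216 to 23.6 ± 3.36 CPM (5.08 ± 0.18). The use of strand in the counting is not given in the sources used here, so overlapping and antisense reads cannot be assigned with certainty. The pseudogene SSBL4P went from 0.652 ± 0.167 to 17.8 ± 4.33 CPM (4.78 ± 0.23). TRAC, the constant region of the T cell receptor alpha chain, went from 1.62 ± 0.662 to 23.9 ± 1.64 CPM (3.88 ± 0.17). IGHA2, an immunoglobulin alpha constant region, went from 1.05 ± 0.656 to 13.7 ± 0.476 CPM (3.73 ± 0.23) and its near copy IGHA1 from 3.12 ± 0.309 to 9.94 ± 1.25 CPM (1.67 ± 0.14). Reads of such close copies may have been split between them, which makes the single values uncertain.

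Among protein-coding genes, 22 had 3 counts or fewer in every DMSO library and at least 1 CPM in every NTC library, and 0 genes met the reverse rule; the DMSO libraries were also the shallower ones. CSPG4, a membrane proteoglycan, had 2 counts over the DMSO libraries against 254 over NTC, a ratio of 88.7 (24.3 to 736). SPINT1, a protease inhibitor, had 10 against 225 (ratio 15.7, interval 8.38 to 33.2). CACNG6, a calcium channel subunit, had 2 against 216 (ratio 75.4, interval 20.6 to 627), and TNIP3, a partner of the NF-kB regulator A20, 3 against 166 (ratio 38.6, interval 13 to 189). ETV7, an ETS family transcription factor, had 0 counts over DMSO and 165 over NTC. Its ratio was 38.4 against a floor of 3 counts set for the DMSO group, and the lower limit of the exact interval was 30.9.

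Genes with the largest deficit in NTC included the catalytic subunit of telomerase and a cytoskeletal protein. TERT, that catalytic subunit, was at 38.1, 32.7, 30.2 and 30.2 CPM in DMSO against 7.197, 5.75, 6.03 and 6.13 CPM in NTC, -2.38 ± 0.11, adjusted p = 4.74e-12. All 4 NTC libraries were far below the lowest DMSO library. MAP1B, a microtubule-associated protein, was at 83.2, 72.3, 121 and 89.3 CPM in DMSO against 14.999, 13.6, 13.99 and 13.1 CPM in NTC (-2.71 ± 0.13, adjusted p = 9.15e-12). LYAR, a nucleolar protein, was at 177, 158, 241 and 166 CPM in DMSO against 38.2, 32.9, 40.4 and 39.2 CPM in NTC (-2.30 ± 0.12, adjusted p = 2.17e-11). RBFA, a factor for mitochondrial ribosome assembly, went from 267 ± 26.7 to 62.6 ± 2.69 CPM (-2.09 ± 0.08), so that nucleolar and mitochondrial ribosome factors were both in the lower set. MT1E, a metallothionein that binds zinc and copper, went from 19.3 ± 2.14 to 4.005 ± 0.537 CPM (-2.26 ± 0.12), and MYL9, a regulatory light chain of myosin, from 52.1 ± 3.67 to 13.3 ± 1.77 CPM (-1.97 ± 0.10). SNHG1, a noncoding host of small nucleolar RNAs, went from 359 ± 32.99 to 91.2 ± 3.405 CPM (-1.98 ± 0.08). Also in this set were OR7E12P (-2.35), HELLPAR (-2.11), PRR22 (-2.02), ELFN1-AS1 (-1.99) and SMN1 (-1.92), the last of which has a near-identical copy and is uncertain.

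**Figure D2:**
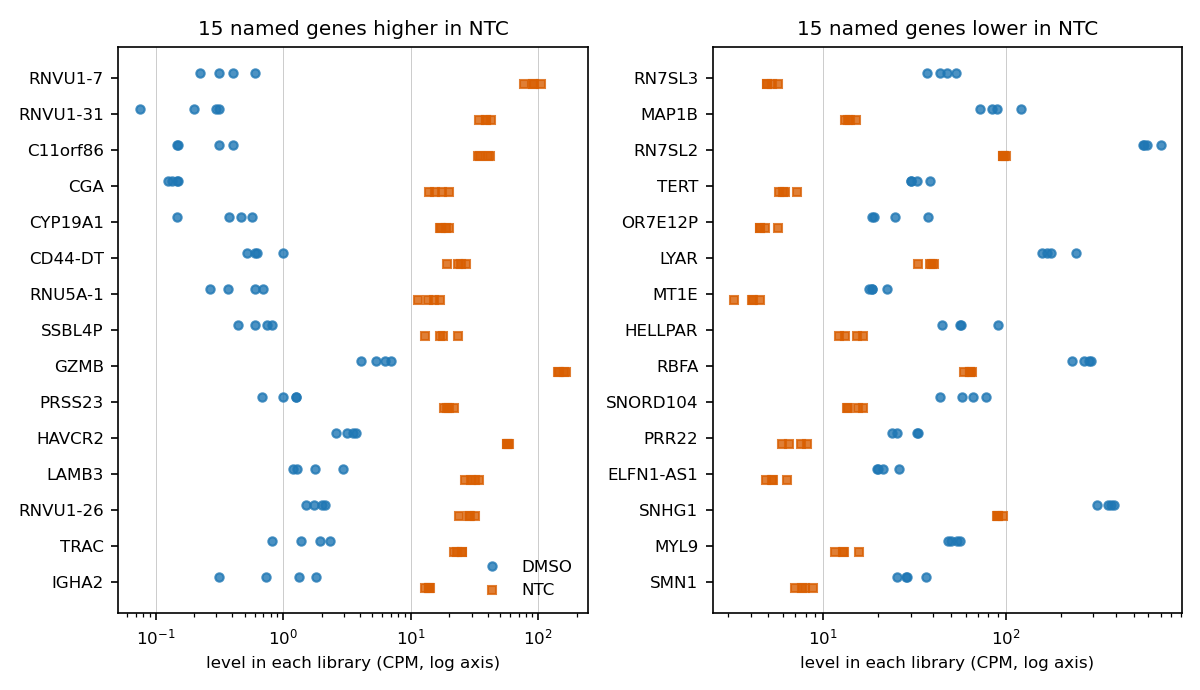
Level in each library (horizontal log axis, CPM) of the 15 genes with the largest log2 fold change each way among called genes of average log2 CPM at least 3 whose groups do not overlap. Circles are the 4 DMSO libraries and squares the 4 NTC libraries; GZMB sits between 4.07 and 7.03 CPM in DMSO and between 142 and 165 CPM in NTC.

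Small noncoding RNAs were mostly lower in NTC. Of 178 tested, 28 were higher and 105 lower in NTC, with a median log2 fold change of -1.02, beside 0.02 over all genes. Their share of the nuclear counts was 0.131, 0.111, 0.152 and 0.123% in DMSO and 0.0630, 0.0703, 0.0765 and 0.0691% in NTC. RN7SL2 and RN7SL3, copies of the RNA of the signal recognition particle, were among the lowest: RN7SL2 was at 592, 559, 699.9 and 567 CPM in DMSO against 100.2, 96.7, 95.5 and 95.95 CPM in NTC (-2.64 ± 0.08, adjusted p = 6.07e-14) and RN7SL3 went from 45.1 ± 6.78 to 5.18 ± 0.354 CPM (-3.12 ± 0.12). SNORD104, a small nucleolar RNA, went from 61.2 ± 14.4 to 14.8 ± 1.501 CPM (-2.05 ± 0.14). RN7SL2 also varied inside the experiments. Its counts were 8005 to 9306 per DMSO library and 1916 to 2075 per NTC library. They were 3688, 557, 3719 and 3880 in degrader libraries 1 to 4, and 905, 2601, 2441 and 6078 in knockout libraries 1 to 4. Degrader library 2 and knockout library 1 were rich in mitochondrial counts. These RNAs have near copies, so single values are uncertain.

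A few spliceosomal RNAs went the other way and were high in NTC alone among the 4 groups of the series. RNVU1-7, a variant copy of the U1 RNA, had 3, 5, 8 and 6 counts in the DMSO libraries and 1527, 1826, 2265 and 1916 in the NTC libraries. The p300 knockout libraries, of the same experiment as NTC, had only 4, 6, 16 and 10 counts of it, and the degrader libraries 1 to 8. RNVU1-31 had 1 to 5 counts per DMSO library, 684 to 923 per NTC library and 2 to 8 per knockout library. RNU5A-1, a U5 RNA, had 4 to 11 in DMSO, 225 to 370 in NTC and 4 to 17 in the knockout, and RNU4ATAC, an RNA of the minor spliceosome, 4 to 10, 107 to 164 and 5 to 10. RNVU1-26 had 20 to 30, 474 to 691 and 19 to 35. These RNAs were thus high in the NTC libraries and near the DMSO level in the knockout libraries, unlike CGA or GZMB, whose knockout minus degrader differences were 7.96 and 5.01. Whether the NTC libraries were prepared or counted differently from the knockout libraries was not tested, so the size of these differences may not be that of the RNA in the cells.

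By kind of gene, pseudogenes were also mostly lower in NTC, with 205 higher and 481 lower of 1088 (median -0.42). Long noncoding RNAs showed 951 higher and 796 lower of 2651 (median 0.09) and protein-coding genes 4868 higher and 4227 lower of 13055 (median 0.05). Immunoglobulin genes took 1.49, 1.55, 1.74 and 1.48% of the nuclear counts in DMSO and 1.06, 1.10, 1.10 and 1.08% in NTC. Gene by gene they did not lean to lower: of 32 tested, 14 were higher and 8 lower (median 0.09). The 100 most counted genes took 26.4 ± 0.350% in DMSO and 23.8 ± 0.145% in NTC, and protein-coding genes 95.1 ± 0.447% and 96.0 ± 0.123%. For these shares and that of small RNAs, the groups did not overlap. Each exact two-sided permutation p was 0.0286, the lowest value this design could reach. After adjustment over the 7 shares compared it was 0.05, which is not under the threshold.

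**Figure D3:**
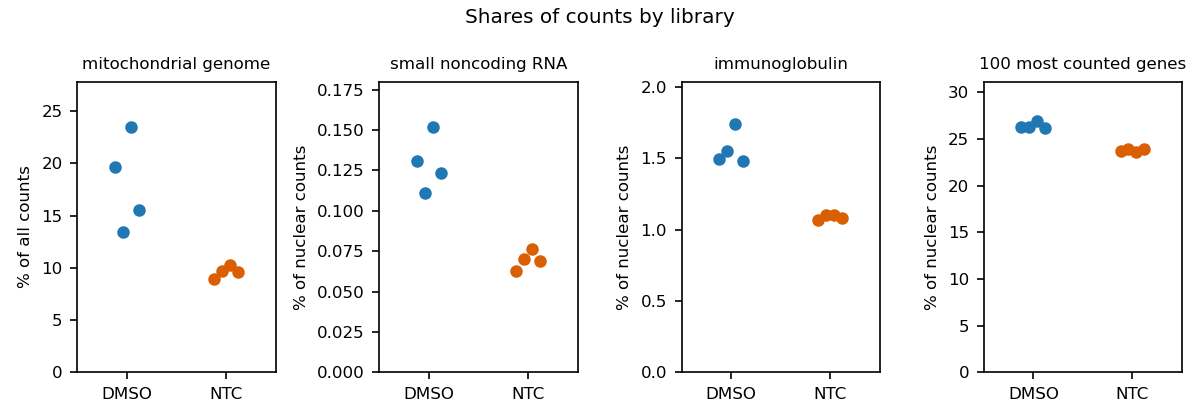
Share of counts in each library (points; 4 DMSO and 4 NTC libraries per panel) taken by the mitochondrial genome (% of all counts), by small noncoding RNAs, by immunoglobulin genes and by the 100 most counted genes (% of nuclear counts). The DMSO libraries lie above the NTC libraries in all 4 panels, with mitochondrial shares of 13.4 to 23.5% against 8.91 to 10.3%.

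Genes for ribosome production were lower in NTC although MYC itself was not. Of 34 MYC targets and ribosome biogenesis genes, 26 were lower and 1 higher, with a median log2 fold change of -0.95; over all genes, 33.2% were lower and the median was 0.02. The member called higher was MYC. SRM, the spermidine synthase, was at 521, 551, 489 and 475 CPM in DMSO against 212, 189, 194 and 197 CPM in NTC (-1.36 ± 0.07, adjusted p = 4.41e-11). NOP16, a factor of the large ribosomal subunit, was at 145, 142, 144 and 144 CPM in DMSO against 49.98, 51.9, 52.1 and 54.2 CPM in NTC (-1.47 ± 0.07, adjusted p = 6.67e-12). Every NTC library was well under every DMSO library for both genes. RRP9 (-1.45 ± 0.08), of a small nucleolar ribonucleoprotein, MRTO4 (-1.38 ± 0.08), a ribosome assembly factor, and the helicase DDX21 (-1.37 ± 0.12) showed like differences, and NCL, nucleolin, -0.74 ± 0.08. NHP2 (-0.25), BYSL (-0.23), TFRC (-0.16), ODC1 (-0.09), POLR1A (-0.04), LDHA (0.17) and CDK4 (0.39) did not pass the test. MYC was at 64.5, 87.4, 44.98 and 69.5 CPM in DMSO against 114, 103, 100.5 and 104 CPM in NTC (0.66 ± 0.13, adjusted p = 0.00025). Its DMSO levels were spread, lowest in library 3, which had the largest mitochondrial share, and highest in library 2, which had the smallest. With the mitochondrial share as a covariate the log2 fold change of MYC was -0.027 (adjusted p = 0.867), whereas the median of the list was -0.98, with 31 lower and 0 higher. As the shares of the groups do not overlap, that fit cannot fully separate the share from the group.

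The E-box CACGTG, the letters bound by MYC and its partners, was searched in the 250 bases before the annotated start of the members. Promoter sequences (RefSeq, GRCh38.p14) were available for 27 of the 34 members, and 4 of them held it on either strand, beside 6.49% of all 27305 promoters in the table and 8.85% of the 11555 of tested genes. Of the 20 members called lower with a promoter, 2 held it. The promoter of SRM (chr1:11060019-11060268, minus strand) is shown 5′ to 3′ because SRM is one of these lower members, with the E-box in capitals.
SRM: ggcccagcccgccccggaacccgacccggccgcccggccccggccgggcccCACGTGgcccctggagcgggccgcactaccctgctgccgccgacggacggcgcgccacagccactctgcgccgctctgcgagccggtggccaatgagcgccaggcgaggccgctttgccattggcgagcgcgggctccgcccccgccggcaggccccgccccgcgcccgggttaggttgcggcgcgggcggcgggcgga

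Genes of DNA replication and of cytoplasmic ribosomes were lower too. Of 30 S phase genes, 26 were lower and 1 higher (median -0.56). CDC6, which loads the replicative helicase, was at 121, 128, 143 and 136 CPM in DMSO against 42.4, 42.3, 39.7 and 40.5 CPM in NTC (-1.68 ± 0.08, adjusted p = 4.74e-12). PCNA, the sliding clamp of DNA polymerases, was at 151, 177, 181 and 166 CPM in DMSO against 79.2, 70.7, 81.4 and 77.04 CPM in NTC (-1.13 ± 0.08, adjusted p = 8.76e-10). The groups did not overlap in either gene. CDC45 (-1.28 ± 0.08) and POLE2 (-1.51 ± 0.10), of the replication fork, were also lower, while TK1 (0.31 ± 0.10), thymidine kinase, was the member called higher and MCM2 (0.07), RRM1 (0.01) and CCNE2 (-0.08) did not pass. Among 28 mitosis genes 14 were lower and 7 higher (median -0.15), but 10 and 10 with total count scaling (median -0.05) and 7 and 5 with all 16 libraries in the fit: AURKB, the kinase of chromosome segregation, went from 185 ± 4.34 to 90.2 ± 2.23 CPM (-1.04 ± 0.07) and UBE2C from 343 ± 37.2 to 152 ± 8.76 CPM (-1.17 ± 0.08), but PLK1 (0.81 ± 0.16) and CCNB2 (0.70 ± 0.09) were higher. MKI67, the proliferation marker Ki-67, was at 317, 373, 368 and 349 CPM in DMSO against 393, 357, 348 and 391 CPM in NTC (0.08 ± 0.08, adjusted p = 0.34).

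Of 30 ribosomal protein genes, 22 were lower and 0 higher (median -0.51). RPL37 was at 1646, 1460.5, 1861 and 1488 CPM in DMSO against 739, 814, 793 and 799 CPM in NTC (-1.04 ± 0.08, adjusted p = 4.85e-09), and RPS18 went from 5065 ± 549.5 to 2605 ± 74.4 CPM (-0.96 ± 0.08), with no overlap in either. RPLP0 (0.16) and RPL10A (0.09) were among the 8 that did not pass. Many of these genes have processed copies, so reads may have been shared with pseudogenes. Nuclear genes of oxidative phosphorylation were split: 18 of 31 were lower and 6 higher (median -0.23), or 21 and 1 with the mitochondrial share as a covariate (median -0.41). ATP5ME, a small subunit of ATP synthase, went from 163 ± 23.8 to 68.1 ± 2.83 CPM (-1.26 ± 0.09) and UQCRQ, of complex III, from 222 ± 15.1 to 114 ± 5.85 CPM (-0.96 ± 0.07), whereas ATP5F1B (0.63 ± 0.15), the catalytic subunit of ATP synthase, and SDHA (0.55 ± 0.11), of complex II, were higher. Shorter genes were lower in general: the median was -0.20 in the fifth of genes with the shortest exon length and 0.10 in the fifth with the longest, and it ran from -0.11 at the lowest GC content to 0.12 at the highest. The ribosomal and mitochondrial lists consist largely of short transcripts, and the part of transcript length in their medians was tested only by removing the trends of length and GC from all libraries, after which the median was -0.60 for ribosomal proteins and -0.33 for oxidative phosphorylation. That step turned the sign of the medians of surface proteins (-0.06), BCL2 family (-0.02), housekeeping genes (-0.08) and nuclear retained and small noncoding RNAs (-0.04).

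**Figure D4:**
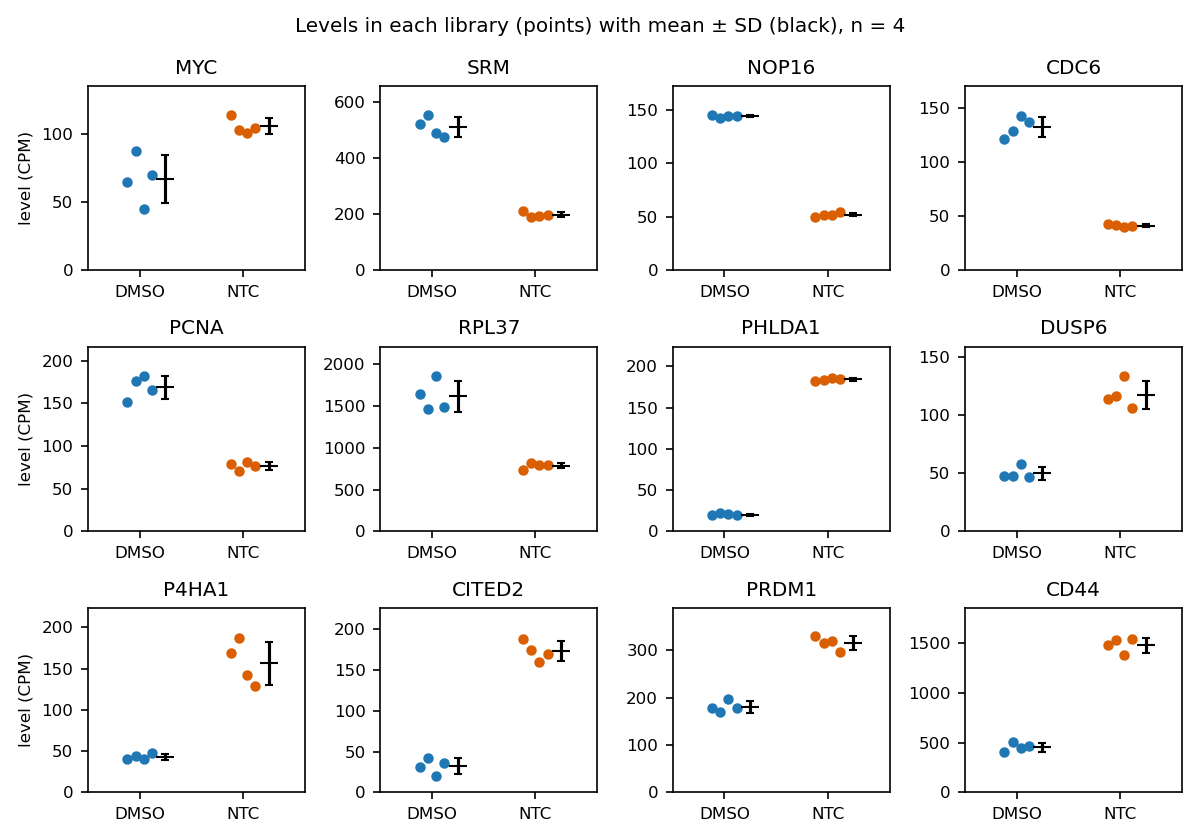
Level of 12 genes (vertical axes, CPM, from 0) in each DMSO and NTC library (points), with mean ± SD in black (n = 4). SRM, NOP16, CDC6, PCNA and RPL37 are lower in NTC without overlap, and MYC, PHLDA1, DUSP6, P4HA1, CITED2, PRDM1 and CD44 are higher without overlap.

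Output genes of the MAPK pathway, in which growth factor receptors signal through RAS and ERK to ETS factors and to feedback inhibitors, were higher in NTC. Of 14 tested, 10 were higher and 3 lower (median 1.22), beside 35.5% higher over all genes. PHLDA1, induced by ERK signalling, was at 19.3, 22.1, 20.6 and 19.9 CPM in DMSO against 182, 184, 186 and 185 CPM in NTC (3.17 ± 0.08, adjusted p = 2.38e-15). DUSP6, the phosphatase that removes the activating phosphates of ERK, was at 47.7, 47.8, 58.3 and 46.8 CPM in DMSO against 114, 116, 134 and 106 CPM in NTC (1.23 ± 0.09, adjusted p = 1.88e-09). The groups were far apart in both. The ETS factors ETV4 (1.96 ± 0.09) and ETV5 (1.23 ± 0.11), the phosphatase DUSP4 (1.82 ± 0.12) and the RAS inhibitor SPRED1 (1.71 ± 0.11) were higher as well. IER3 (-0.84 ± 0.11), DUSP5 (-0.66 ± 0.07) and FOSL1 (-0.57 ± 0.12) were lower, and SPRY1 (-0.19) did not pass the test.

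Immediate early genes, which respond within minutes to many stimuli, were higher more often than lower. Of 26 tested, 15 were higher and 4 lower (median 0.34). DUSP1 was at 4.36, 4.97, 2.56 and 5.22 CPM in DMSO against 19.4, 21.2, 19.1 and 20.7 CPM in NTC (2.22 ± 0.14, adjusted p = 4.24e-10), and FOS, a subunit of the AP-1 factor, was at 3.695, 3.59, 2.86 and 3.68 CPM in DMSO against 9.31, 13.2, 12.5 and 13.7 CPM in NTC (1.81 ± 0.15, adjusted p = 7.41e-09). Its partner JUN was lower: it was at 53.5, 48.9, 55.2 and 46.1 CPM in DMSO against 20.1, 18.4, 19.1 and 18.8 CPM in NTC (-1.41 ± 0.08, adjusted p = 9.68e-11). The groups did not overlap in these 3 genes, so both subunits of AP-1 differed, in opposite directions. KLF10 (1.36 ± 0.08), KLF4 (1.83 ± 0.42) and ZFP36L1 (1.43 ± 0.11) were higher, while NR4A1 (-0.12) and KLF6 (-0.11) did not pass. With the mitochondrial share as a covariate 8 members were higher and 5 lower.

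Targets of the hypoxia-inducible factors were higher in part. These factors are stabilised when oxygen falls, and their targets include glycolytic enzymes, prolyl hydroxylases and regulators that limit the response. Of 27 tested, 16 were higher and 3 lower (median 0.45). P4HA1, a collagen prolyl hydroxylase, was at 39.9, 43.6, 40.99 and 47.2 CPM in DMSO against 169, 187, 142 and 129 CPM in NTC (1.87 ± 0.11, adjusted p = 7.01e-11). CITED2, which competes with hypoxia-inducible factor for the domain of p300 that it binds, was at 31.6, 41.6, 19.9 and 36.5 CPM in DMSO against 188, 175, 159.8 and 170.2 CPM in NTC (2.41 ± 0.15, adjusted p = 1.69e-10). Every NTC library was far above every DMSO library in both genes. The oxygen-sensing hydroxylase EGLN3 (3.15 ± 0.28), NDRG1 (1.88 ± 0.11), ADM (1.86 ± 0.30), adrenomedullin, and CA9 (1.63 ± 0.28), a carbonic anhydrase, were also higher. Others went against them: the glucose transporter SLC2A1 (-0.497 ± 0.12), the hexokinase HK2 (-0.81 ± 0.08) and ERO1A (-0.38 ± 0.09) were lower, and VEGFA (0.16), PDK1 (-0.09), LDHA and BHLHE40 (-0.04) did not pass. The median fell to 0.14 with the mitochondrial share as a covariate, with 12 higher and 2 lower.

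The core letters of the hypoxia response element, ACGTG, occurred on either strand in 14 of the 24 members with a RefSeq promoter. This stands beside 18.7% of all promoters and 23.0% of those of tested genes. Within the list, 7 of the 14 called higher, 2 of the 3 called lower and 5 of the 7 not called held it. The promoters of P4HA1 (chr10:73096867-73097116, minus strand) and CITED2 (chr6:139374649-139374898, minus strand) are shown as the members with large differences that hold it, with the matches in capitals (CACGT is the same motif read on the other strand, and in CITED2 matches on both strands overlap).
P4HA1: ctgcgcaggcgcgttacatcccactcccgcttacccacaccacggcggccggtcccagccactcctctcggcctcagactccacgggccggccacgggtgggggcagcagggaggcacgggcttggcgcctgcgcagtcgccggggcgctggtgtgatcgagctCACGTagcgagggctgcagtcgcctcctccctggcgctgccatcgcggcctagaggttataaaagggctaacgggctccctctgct
CITED2: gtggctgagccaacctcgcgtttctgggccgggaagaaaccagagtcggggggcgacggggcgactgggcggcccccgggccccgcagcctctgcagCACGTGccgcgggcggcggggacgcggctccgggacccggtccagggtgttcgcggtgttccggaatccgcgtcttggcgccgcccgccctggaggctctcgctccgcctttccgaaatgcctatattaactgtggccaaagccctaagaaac

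Transcription factors of B and plasma cells were mostly higher in NTC, with 16 of 20 higher and 2 lower (median 0.72). PRDM1, or BLIMP1, which establishes the plasma cell program, was at 178, 169, 198 and 178 CPM in DMSO against 331, 315, 321 and 296 CPM in NTC (0.80 ± 0.07, adjusted p = 2.71e-08). MAF, an oncogenic factor in part of myelomas, was at 89.7, 95.6, 83.4 and 97.03 CPM in DMSO against 277, 275, 243 and 265 CPM in NTC (1.53 ± 0.08, adjusted p = 1.69e-11), and BHLHE41, a repressor of the basic helix-loop-helix family, at 22.6, 27.1, 24.7 and 21.2 CPM in DMSO against 105, 114, 108 and 103 CPM in NTC (2.17 ± 0.08, adjusted p = 8.46e-13). The groups were separate in all 3. IKZF1, Ikaros, the target of lenalidomide, went from 34.8 ± 2.79 to 89.9 ± 5.86 CPM (1.37 ± 0.08). XBP1 (0.24 ± 0.09), the factor of the secretory program, differed by little. IRF4, on which myeloma cells depend, was at 529, 597, 527 and 585 CPM in DMSO against 608, 596, 571 and 565 CPM in NTC (0.06 ± 0.07, adjusted p = 0.435); these levels overlapped, and TCF4 (-0.07) did not pass either. ZBTB20 (-0.47 ± 0.16) and POU2F1 (-0.23 ± 0.08) were lower.

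Surface proteins were split evenly, 10 higher and 9 lower of 23, and several targets of myeloma antibodies and cell therapies were among the lower ones. TNFRSF17, or BCMA, was at 839, 921, 1042 and 928 CPM in DMSO against 542, 589.7, 574 and 566 CPM in NTC (-0.72 ± 0.08, adjusted p = 1.9e-07). GPRC5D was at 26.3, 34.9, 22.4 and 28.2 CPM in DMSO against 14.04, 16.1, 15.1 and 15.7 CPM in NTC (-0.88 ± 0.11, adjusted p = 2.13e-06), and SLAMF7 was at 103, 113, 106 and 112 CPM in DMSO against 63.6, 65.9, 62.5 and 61.8 CPM in NTC (-0.77 ± 0.07, adjusted p = 2.24e-08). All of these were lower in NTC. CD38 (0.29 ± 0.07) was slightly higher, and SDC1, or CD138, was at 304, 403, 242 and 344 CPM in DMSO against 349, 331, 296 and 324 CPM in NTC (0.01 ± 0.11, adjusted p = 0.956) and did not pass the test. CD28, a costimulatory receptor, went from 155 ± 9.799 to 388 ± 12.4 CPM (1.32 ± 0.07), ITGA4, the integrin alpha 4 chain, from 106 ± 13.5 to 319.8 ± 23.8 CPM (1.59 ± 0.09) and FCRL2 from 36.7 ± 4.33 to 125 ± 7.45 CPM (1.76 ± 0.09). CXCR4, the homing receptor for bone marrow, was lower (-1.22 ± 0.15), as was CD48 (-1.11 ± 0.07). Among 25 chemokines and adhesion molecules, 11 were higher and 5 lower (median 0.14, or -0.00071 with the mitochondrial share as a covariate, 0.03 without DMSO library 3 and 0.07 without DMSO library 4): the integrin chains ITGB1 (1.56 ± 0.08) and ITGB2 (1.25 ± 0.23) and SELPLG (1.40 ± 0.10), the P-selectin ligand, were higher, and the chemokine CCL3 (-0.91 ± 0.08) lower.

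Genes of the secretory pathway gave mixed counts with a low median. Of 18 immunoglobulin and secretory factors, 6 were higher and 9 lower (median -0.22, mean 0.10, as IGHA2 and IGHA1 raise the mean). IGKC, the kappa light chain constant region, was lower (-0.92 ± 0.08), and DERL3, of endoplasmic reticulum degradation, was at 399, 363, 334 and 392 CPM in DMSO against 146, 142, 149.5 and 137 CPM in NTC (-1.37 ± 0.08, adjusted p = 4.94e-11). MZB1 (-0.74 ± 0.07) and FKBP11 (-0.73 ± 0.06), chaperone partners of plasma cells, were lower, and TXNDC5 (1.01 ± 0.16) higher. Of 20 genes of the unfolded protein response, which adjusts the folding capacity of the endoplasmic reticulum, 7 were higher and 9 lower (median -0.19). The chaperones HSP90B1 (-0.70 ± 0.07), HSPA5 (-0.56 ± 0.08) and CALR (-0.40 ± 0.08) and the translocon subunit SEC61B (-1.18 ± 0.09) were lower. The sensors ERN1 (0.75 ± 0.08) and ATF6 (0.78 ± 0.09) and the degradation factors EDEM1 (0.73 ± 0.08) and HERPUD1 (0.61 ± 0.07) were higher. These members were named after their values were seen, and beside the list's counts stand 35.5% higher and 33.2% lower over all genes.

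Amino acid stress genes controlled by ATF4 were lower more often than higher, 14 against 5 of 27 (median -0.30), beside 33.2% lower and 35.5% higher over all genes. ATF4 itself was lower (-0.78 ± 0.07), as were CHAC1 (-1.503 ± 0.13), DDIT3 (-1.22 ± 0.10) and the serine synthesis enzymes PHGDH (-0.90 ± 0.08) and PSAT1 (-0.997 ± 0.07). STC2, a secreted glycoprotein, was at 107, 110.1, 105 and 105 CPM in DMSO against 51.8, 48.1, 50.3 and 44.2 CPM in NTC (-1.13 ± 0.07, adjusted p = 3.64e-10). PSPH (1.03 ± 0.08), the last enzyme of serine synthesis, and the lipoprotein receptor VLDLR (1.84 ± 0.12) were higher instead, and ATF3 (-0.02), TRIB3 (-0.10) and DDIT4 (-0.07) did not pass.

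Interferon-stimulated genes were higher in 13 of 26 and lower in 4 (median 0.33); without DMSO library 2 it was 12 and 5 of 27, with a median of 0.15. OAS1, which senses double-stranded RNA, was at 7.98, 9.497, 9.702 and 13.2 CPM in DMSO against 52.6, 53.6, 52.7 and 51.2 CPM in NTC (2.38 ± 0.11, adjusted p = 8.75e-12), and SAMD9, an antiviral factor, at 11.97, 12.1, 9.55 and 11.5 CPM in DMSO against 59.99, 70.5, 61.6 and 54.2 CPM in NTC (2.44 ± 0.10, adjusted p = 1.84e-12). The groups did not overlap in either. MX2 (1.70 ± 0.25) and BST2 (0.91 ± 0.08) were higher, but IFIT3 (-1.83 ± 0.18), IFIT1 (-0.96 ± 0.26) and IRF7 (-0.71 ± 0.07) were lower and ISG15 (-0.10) did not pass. The other 7 members of the list were too low to be tested. NF-kB targets gave 9 higher and 6 lower of 21 (median 0.17, or 0.08 without DMSO library 2 and 0.32 without DMSO library 3): TRAF1, a signalling adaptor, was at 8.94, 5.85, 6.92 and 6.62 CPM in DMSO against 55.2, 72.5, 58.4 and 61.1 CPM in NTC (3.13 ± 0.12, adjusted p = 7.72e-13) and CD40 (1.79 ± 0.28) was higher, while the subunit REL (-1.47 ± 0.11) and the inhibitors TNFAIP3 (-0.89 ± 0.14) and NFKBIA (-0.44 ± 0.10) were lower. Of 16 genes of antigen presentation by MHC class I, 7 were higher and 3 lower (median 0.15, or -0.0017 with the mitochondrial share as a covariate, 0.26 without DMSO library 2 and 0.08 without DMSO library 3), with HLA-B at 211, 248, 144 and 223 CPM in DMSO against 398, 393, 363 and 402 CPM in NTC (0.92 ± 0.12, adjusted p = 2.08e-06). MHC class II genes gave 1 higher and 3 lower of 9. Their median was -0.46, or 0.05 without the filter on low counts and -0.04 with the mitochondrial share as a covariate. CIITA, their master regulator, was at 4.36, 4.15, 2.63 and 3.81 CPM in DMSO against 1.71, 2.32, 1.93 and 1.65 CPM in NTC (-0.98 ± 0.20, adjusted p = 0.000316). Beside the counts of these lists stand 35.5% higher and 33.2% lower over all genes.

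Genes that block and genes that promote cell death were both among those higher in NTC. Of 16 BCL2 family members 7 were higher and 3 lower, beside 35.5% and 33.2% over all genes, and their median of 0.09 turned to -0.02 once length and GC trends were removed. MCL1, the survival protein on which myeloma cells rely, was at 646, 679.9, 541 and 665 CPM in DMSO against 1290.3, 1305, 1245 and 1198 CPM in NTC (0.99 ± 0.08, adjusted p = 5.5e-09). BMF, which neutralises survival proteins, was at 55.5, 48.9, 44.3 and 49.1 CPM in DMSO against 145, 156, 144 and 149.6 CPM in NTC (1.59 ± 0.08, adjusted p = 1.67e-11). Both were higher without overlap. BCL2 (1.16 ± 0.12), BCL2A1 (1.46 ± 0.12) and BCL2L11 (0.72 ± 0.09), or BIM, were higher, and BIK (-0.85 ± 0.10) and PMAIP1 (-0.76 ± 0.21), or NOXA, lower. p53 targets gave 11 higher and 9 lower of 26 (median -0.01), with TP53INP1 (1.98 ± 0.11) and CDKN1A (0.29 ± 0.08) higher and MDM2 (-0.19 ± 0.07) lower.

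Stress, lipid and cancer-testis lists had no common direction. Heat shock genes gave 6 higher and 7 lower of 18, with HSPA1B from 92.2 ± 12.02 to 25.8 ± 2.11 CPM (-1.84 ± 0.10), a gene with a near-identical copy, HSPA1A (-1.25 ± 0.29), and HSPE1 (-1.29 ± 0.10) lower. Metallothioneins and oxidative stress genes gave 8 higher and 5 lower of 19: MT1E, MT1X (-0.93 ± 0.11) and MT2A (-0.77 ± 0.17) were lower, and HMOX1, haem oxygenase, was at 69.5, 93.8, 90.8 and 74.9 CPM in DMSO against 216, 192, 199 and 149 CPM in NTC (1.20 ± 0.11, adjusted p = 3.86e-08). TXNIP (1.51 ± 0.09), which binds thioredoxin and responds to glucose, was higher. Sterol and fatty acid genes gave 10 higher and 8 lower of 29, with the desaturases FADS1 (-0.62 ± 0.07) and SCD (-0.60 ± 0.08) lower and SREBF1 (0.42 ± 0.07), a regulator of lipid synthesis, higher. Cancer-testis antigen genes gave 6 higher and 6 lower of 16, PAGE5 (-0.81 ± 0.07) and MAGEA1 (-0.61 ± 0.07) among the lower and PRAME (0.94 ± 0.09) among the higher. Housekeeping genes gave 8 higher and 7 lower of 25 (median 0.04): GAPDH (-0.05), TBP (-0.18) and EEF1A1 (0.17) did not pass, ACTB (-0.33 ± 0.08) and HPRT1 (-0.68 ± 0.09) were lower and YWHAZ (0.75 ± 0.08) higher, so common reference genes were not all level between the controls.

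Histone genes differed in both directions, 11 higher and 8 lower of the 22 tested in the list (median 0.37, mean -0.04). Over all 48 tested replication-dependent histone genes, 17 were higher and 21 lower, and the median had the opposite sign (-0.20). The linker histones H1-5 (-3.25 ± 0.48), H1-4 (-3.000 ± 0.32), H1-3 (-2.59 ± 0.23) and H1-2 (-0.72 ± 0.11) were all lower. H1-4 was at 3.18, 6.04, 9.25 and 4.22 CPM in DMSO against 0.503, 0.555, 0.874 and 0.849 CPM in NTC, with no overlap and a wide spread among the DMSO libraries. Core histone genes were found on both sides: H2AC6 (1.47 ± 0.09) and H2AC11 (2.11 ± 0.12) were higher, and H2AC16 (-2.02 ± 0.39), H4C3 (-1.27 ± 0.24), H2AC8 (-0.55 ± 0.16) and H2BC9 (-0.496 ± 0.15) lower. Most histone transcripts lack a poly(A) tail, and the kit label does not say whether poly(A) RNA was selected.

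**Figure D5:**
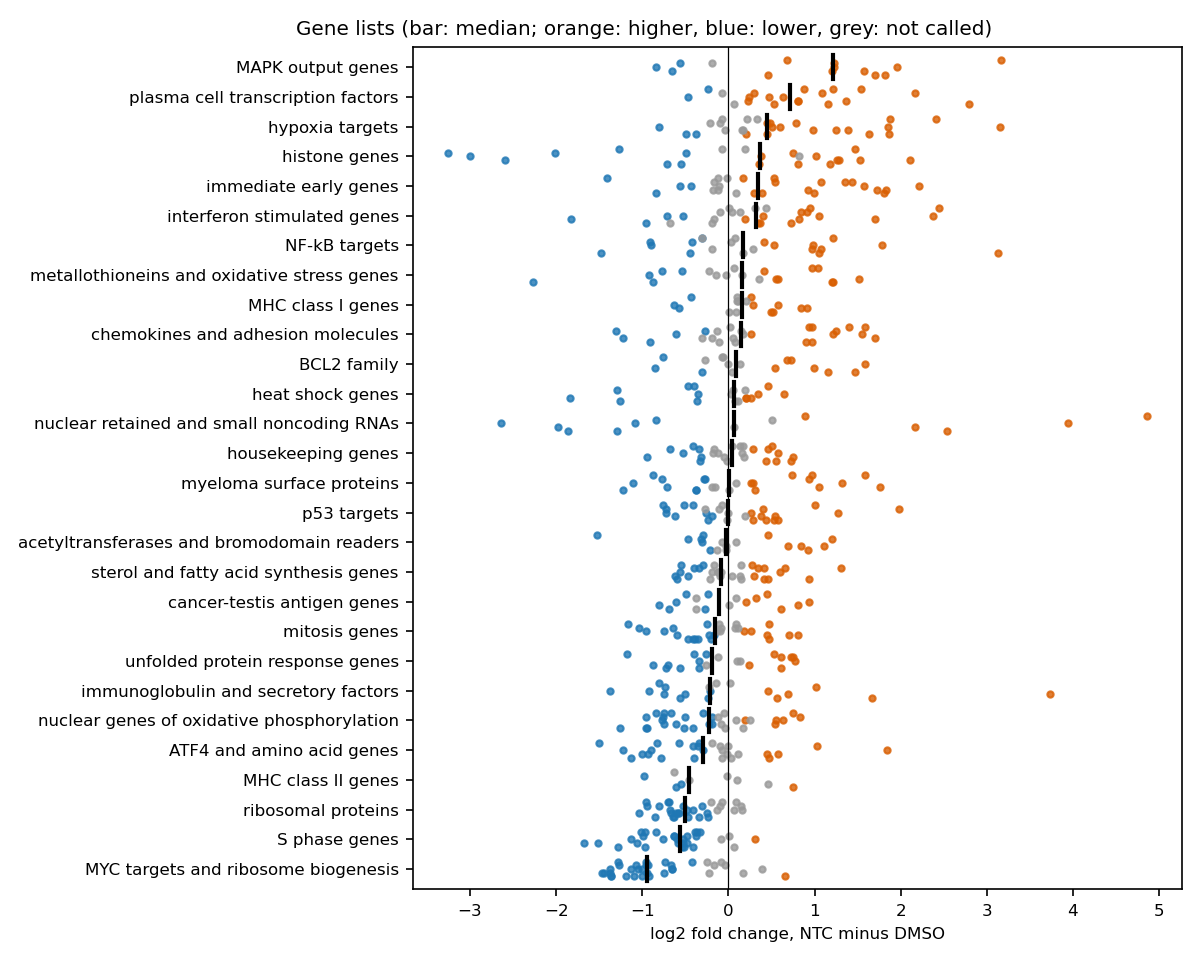
Log2 fold change (horizontal axis, NTC minus DMSO) of each tested member of 28 gene lists, with the median of each list as a black bar; orange members were called higher, blue lower and grey not called. The lists run from MYC targets and ribosome biogenesis (median -0.95) to MAPK output genes (median 1.22).

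EP300, which encodes p300 itself, was higher in NTC. It was at 49.002, 62.3, 60.2 and 56.7 CPM in DMSO against 115, 106, 104 and 109 CPM in NTC (0.92 ± 0.08, adjusted p = 1.75e-08), with no overlap. CREBBP, its paralog CBP, was at 32.7, 34.1, 40.3 and 38.01 CPM in DMSO against 59.6, 58.999, 55.6 and 60.8 CPM in NTC (0.70 ± 0.08, adjusted p = 5.75e-07), also without overlap. Of 17 acetyltransferases and bromodomain readers, 6 were higher and 6 lower: KAT2B, or PCAF, was higher (1.20 ± 0.08), as was BRD3 (0.85 ± 0.09), and BRD9 (-1.53 ± 0.08), a subunit of a chromatin remodeller, was lower. BRD2 (-0.02) did not pass. On 1 scale over all 16 libraries, EP300 was 56.7 ± 5.79 CPM in DMSO, 108 ± 4.68 CPM in NTC and 44.2 ± 4.92 CPM in the knockout. The knockout level thus lay under its own control and near the control of the other experiment.

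Several genes that respond to the degrader or that the study names already differed between the controls. This list was chosen from the study and from these libraries, so its counts are a description. MYL9 averaged 51.8 CPM in DMSO, 7.86 CPM in the degrader group, 13.3 CPM in NTC and 14.5 CPM in the knockout. Its NTC level was nearer to the degrader level than to DMSO. IL16, a lymphocyte attractant, averaged 15.7, 46.4, 57.5 and 50.6 CPM in the same order, and ANXA6, an annexin, 9.85, 32.6, 46.1 and 45.9 CPM. MARCKSL1, an actin-binding protein, averaged 25.7, 5.80, 10.1 and 6.86 CPM. In these 4 genes the NTC mean lay on the degrader side of the DMSO mean. EGR1, an immediate early factor, was on that side too, at 6.93, 38.3, 20.9 and 15.99 CPM. The NTC means of EGR1, MYL9 and MARCKSL1 lay between those of DMSO and the degrader. MYC lay on the other side of DMSO, at 66.2, 39.0, 105 and 53.9 CPM in the same order. Not all genes of the list are given here. BHLHE40, a hypoxia and clock regulator, averaged 59.3, 8.98, 57.9 and 49.7 CPM, DDIT4 546, 111, 521 and 801 CPM and FOSL2, an AP-1 subunit, 39.5, 7.71, 35.4 and 37.5 CPM, so that these were close between the controls. The degrader and knockout groups include degrader library 2 and knockout library 1, which were rich in mitochondrial counts.

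Transcripts of cytotoxic lymphocytes were higher in NTC without the full set of markers of those cells. The summed level of 9 NK cell markers was 77.5 to 84.7 CPM in DMSO and 245 to 269 CPM in NTC. GZMB, at the levels given above, made up most of the NTC sum but little of the DMSO sum. Of the 5 tested, GZMB, GNLY, NKG7 and PRF1 were higher and 1 was lower (-0.38). PRF1, perforin, was at 0.296, 0.503, 0.301 and 0.669 CPM in DMSO against 9.86, 8.08, 7.64 and 9.105 CPM in NTC (4.25 ± 0.22, adjusted p = 2.8e-11), and GNLY, granulysin, at 1.92, 2.58, 2.86 and 2.01 CPM in DMSO against 22.7, 25.3, 24.2 and 25.8 CPM in NTC (3.38 ± 0.13, adjusted p = 4.65e-13). KLRD1 had 4 counts over DMSO and 5 over NTC, and FCGR3A 0 and 30. The summed level of 12 T cell markers was 274 to 305 CPM in DMSO and 766 to 810 CPM in NTC, carried by CD28 and TRBC2, which DMSO also held. CD3D had 0 counts over DMSO and 12 over NTC, CD3G 0 and 14, CD2 2 and 5 and CD8A 4 and 10, and CD3E was lower in NTC (-0.81 ± 0.08). TRAC, as given above, and TRBC1 (2.16 ± 0.305 to 11.5 ± 0.999 CPM, 2.42 ± 0.14), constant regions of the T cell receptor, were higher. Thus CD3D, CD3G, CD2, CD8A, KLRD1 and FCGR3A had at most 30 counts over either group. The receptor constant regions and CD3E were counted in both. Without the filter on low counts, 6 of 12 T cell markers were called higher and 1 lower. Of 9 NK cell markers, 6 were called higher and 1 lower in that fit. Over all 38445 genes it tested, 7855 were higher and 6174 lower. Earlier B cell markers summed to 74.5 to 88.0 CPM in DMSO and 119 to 130 CPM in NTC (8 of 12 higher, 3 lower): BCL6 (2.32 ± 0.34), PAX5 (1.90 ± 0.19) and BACH2 (1.42 ± 0.11) were higher and CR2 (-1.98 ± 0.42) lower, all at low levels. Markers of monocytes were at 4.48 to 6.58 CPM and 12.7 to 17.4 CPM, of epithelia at 13.3 to 18.95 and 20.3 to 22.9 CPM, of erythroid cells at 26.2 to 30.3 and 17.5 to 19.6 CPM, and of fibroblasts at 0.629 to 1.40 and 1.09 to 2.01 CPM. The epithelial cadherin CDH1 was higher (3.91 ± 0.35), and CSF1R (2.96 ± 0.21), a receptor of macrophages, too. In bulk RNA, more cells of a type and more RNA per cell cannot be told apart.

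Along the chromosomes, the tested genes were cut into 346 blocks of about 50 neighbours. Block medians ran from -0.78 to 0.67, and their 5th and 95th percentiles were -0.27 and 0.31. The lowest block was chr19:19561707-23945159 (GRCh38), with 5 genes higher and 36 lower of 50. It holds a cluster of zinc finger genes, which encode repressors of transposable elements: its 28 ZNF genes had 0 higher and 25 lower (median -0.84), and its other 22 genes 5 higher and 11 lower (median -0.37). GMIP (1.04 ± 0.08) and LPAR2 (1.61 ± 0.15), in the same block, were higher. Over the genome, 62 of 415 ZNF genes were higher and 173 lower (median -0.20); on chromosome 19 it was 12 higher and 99 lower of 211 (median -0.33), elsewhere 50 higher and 74 lower of 204 (median -0.03). The ZNF genes were singled out after their values were seen. The next block from the bottom was chr16:12081237-19063942 (median -0.59, 13 higher and 26 lower of 50), in which XYLT1 (1.07 ± 0.08) and CPPED1 (1.13 ± 0.10) were higher.

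The highest blocks were chr15:92471654-101976543 (median 0.67, 22 higher and 5 lower of 43) and chr7:143244093-151047782 (median 0.63, 30 higher and 9 lower of 50). The former holds SYNM, an intermediate filament protein, which was at 7.095, 9.81, 6.17 and 8.298 CPM in DMSO against 39.9, 37.8, 35.7 and 34.5 CPM in NTC (2.23 ± 0.11, adjusted p = 2.47e-11), and MEF2A (1.10 ± 0.09), a transcription factor. In the latter TCAF2, a channel-associated factor, was at 5.54, 5.47, 5.72 and 5.49 CPM in DMSO against 26.3, 30.4, 28.2 and 24.6 CPM in NTC (2.30 ± 0.10, adjusted p = 4.5e-12) and FAM131B-AS2 was higher as well (2.93 ± 0.15). Whether copy number differs between the cells of the groups was not tested.

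Without the 2 libraries rich in mitochondrial counts, most genes called between the controls also differed in the same direction between the other groups of the same experiments, which share no library with them. The p300 knockout minus the degrader called 4429 of 16519 genes (26.8%), and 10742 of 16396 (65.5%) without degrader library 2 and knockout library 1. In the latter fit, 3980 of the 5715 genes higher in NTC that both fits tested were called higher (5544 in all, 33.8% of the genes tested) and 320 lower. Of the 5438 lower in NTC, 3602 were called lower (5198 in all, 31.7%) and 293 higher. Among 11153 genes called between the controls and tested in both, 85.6% had the same sign, and Pearson's r over all 16153 shared genes was 0.71, a description across genes. The knockout and degrader cells differ from each other in more than the experiment, so this is no repeat under equal conditions.

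Of the 15 named genes highest in NTC, 12 had enough counts to be tested between knockout and degrader; these 12 had the same sign and 11 were called, SSBL4P (0.68) being the other. The 3 left out, RNVU1-7, RNVU1-31 and RNU5A-1, did not repeat: they had at most 17 counts in any knockout library and at most 8 in any degrader library, against 225 or more in each NTC library. RNVU1-26 differed by 0.86, beside 3.94 between the controls. Of the 15 lowest, 14 had the same sign and were called. C11orf86 differed by 7.56, HAVCR2 by 3.16, TERT by -2.25 and LYAR by -2.47. MYL9 went the other way, at 0.87. The MYC and ribosome list gave 1 higher and 32 lower of 34 (median -1.24), S phase genes 0 and 29 of 30 (median -0.89), ribosomal proteins 0 and 29 of 30 (median -0.64), plasma cell transcription factors 16 and 1 of 20 (median 0.78), hypoxia targets 19 and 5 of 27 (median 0.98) and MAPK output genes 9 and 3 of 14 (median 0.61). Other lists departed from the counts between the controls. MHC class I genes gave 2 higher and 8 lower of 16 (median -0.20) and earlier B cell markers 2 and 4 of 10 (median -0.36), where both had leaned to higher between the controls. Surface proteins gave 5 and 14 of 23 (median -0.23), cancer-testis antigen genes 0 and 12 of 16 (median -0.52), heat shock genes 4 and 14 of 18 (median -0.45), housekeeping genes 5 and 12 of 25 (median -0.16) and sterol and fatty acid genes 5 and 16 of 29 (median -0.26), where the counts had been nearly even. NF-kB targets gave 7 and 6 of 21 (median -0.0034).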

How the data were processed

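The authors deposited whole-number read counts per gene for each library, per the file headers; they were used as deposited (57500 genes per file). Per the submitters' processing notes, reads were processed against GRCh38 with STAR 2.5.2b, Trimmomatic 0.36, Subread 1.5.2 (featureCounts) and DESeq2 1.16.1. The sources used here do not give annotation release, strand or treatment of multiply mapped reads. Gene kinds and positions came from GENCODE 29 (56898 identifiers matched) and promoters from RefSeq (GRCh38.p14). The 35 mitochondrial genes were left out.

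NTC and DMSO libraries were grouped by their labels and compared with edgeR 4.0.16 (R 4.3.3; filterByExpr, trimmed mean of M-values, quasi-likelihood test, Benjamini-Hochberg adjustment, 8 libraries in the fit, threshold 0.05). The code was tested on simulated data. Shares were compared by exact permutation over the 70 splits of 8 libraries (scipy 1.17.1), list counts are descriptions, and count ratios have exact 95% intervals. Replicates of a group differed by more than sampling noise (chi-square per degree of freedom 4.46 to 23.2 in DMSO, 2.44 to 3.70 in NTC), and 0 pairs were identical. Alternatives were other scalings, filters and tools (DESeq2 1.42.0, limma 3.58.1), all 16 libraries in 1 fit, a 1.5-fold test, the mitochondrial share as a covariate, length and GC trends removed, the replicate number as a block, and each library left out; leaving out DMSO 1 and 3 together and the knockout minus degrader fits were added after seeing the data.

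Genes were named by rule: at most 15 in each direction, by size of the log2 fold change, from called genes that have a symbol, an average log2 CPM of 3 or more and groups without overlap; for each list the 4 members of smallest p; at most 6 protein-coding genes each way with 3 counts or fewer in every library of 1 group and at least 1 CPM in every library of the other; EP300, CREBBP, MYC and IRF4; and 2 genes in each extreme block. Genes of sex chromosomes that mark sex and immunoglobulin variable segments were left out of it, and some genes that it names are not reported here. Other list members are named with their values as examples of the counts, chosen after their values were seen. The members and lists were chosen with earlier results of these data known.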

Additional observations from a re-analysis of the deposited data

Results flagged for a closer look

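In 17 of the 318 groups of 4 values examined (5.35%), the highest or lowest library lay apart from the other 3 by more than Dixon's 95% critical share of the range of the group; chance alone flags about 1 group in 20. NTC library 3 accounted for 6 of them, DMSO 3 for 4, DMSO 1 for 3 and NTC 1 and NTC 2 for 2 each. In NTC 3, SNHG1 was high at 96.3 CPM (others 88.9 to 90.0) and CDK1 at 37.0 CPM (33.0 to 33.6). PSPH was low there at 41.0 CPM (45.6 to 46.0), as were H2AC6 at 25.8 CPM (29.1 to 29.6), ITGB1 at 117 CPM (139 to 141) and SELPLG at 313 CPM (326 to 329). In DMSO 3, the library with the largest mitochondrial share, BCL3 was low at 36.2 CPM (40.4 to 40.8), while SPRED1 was high at 8.57 CPM (7.02 to 7.16), HSPE1 at 469 CPM (337 to 358) and the share of replication-dependent histone genes at 0.0434% of nuclear counts (0.0325 to 0.0341%). In DMSO 1, HLA-DRA was low at 2.37 CPM (3.46 to 3.61), MEF2A high at 18.4 CPM (17.7 to 17.8), and TNIP3 was counted only there, at 0.222 CPM. NTC 1 was low for RPS18 at 2494 CPM (2628 to 2651) and PAGE5 at 86.5 CPM (93.0 to 94.2). NTC 2 was high for FCRL2 at 136 CPM (120.1 to 122) and VLDLR at 26.9 CPM (20.8 to 21.7). In HLA-DRA the low DMSO library lay inside the range of NTC, and in the histone share the high DMSO library lay above all NTC libraries while the other DMSO libraries lay below them. In the other 15 the library stayed on the side of its own group.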

How the results depend on the processing

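Over the alternatives that tested for any difference at an adjusted p under 0.05, the number of genes called between NTC and DMSO ranged from 7906 to 14029 around 11917. The highest number came without a filter on low counts, where 38445 genes were tested, against 17341 in the main fit. It was thus a smaller share of the genes tested. The number called was 7906 of 17341 (3969 higher) with the mitochondrial share as a covariate, where 11 genes called in both fits had opposite signs. Tested against a 1.5-fold change, 5263 genes were called (3019 higher, 2244 lower). Without a filter on low counts 6801 of 38445 genes were called and differed by 1 or more on the log2 scale, against 4191 of 17341. Leaving out 1 library gave 11190 to 12385 calls. The replicate numbers did not pair the libraries (correlations of deviations -0.03, 0.01, 0.15 and 0.00 for numbers 1 to 4), and with the replicate block 11887 genes were called. Between the other groups, leaving out the libraries rich in mitochondrial counts gave 6387 (degrader minus DMSO), 7244 (knockout minus NTC) and 10742 (knockout minus degrader) calls. The difference in mitochondrial share of counts ranged from -9.95 to -6.59 points without 1 library, where the smallest p possible is 0.0571. Of the 11917 calls, 7217 were kept in the same direction with the covariate and 8474 with all 16 libraries. The named genes were mostly picked by size or small p in these same data, so their counts are a description. Of 155 named genes, 154 were called and 137 of them stayed called under all 22 alternatives. The log2 fold change of MYC turned to -0.027 with the covariate, where HSP90AA1, HLA-DOB, HLA-DMA and HLA-DRA also lost their call; 5 were lost with all 16 libraries and 16 in the 1.5-fold test, and IRF4 gained one with total count scaling (0.17, adjusted p = 0.0349). The cause of these changes was not tested. Depth limits the low genes: 3 counts are the floor, and the DMSO libraries are shallower.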
